A study of Homo sapiens with 61 samples.

Results

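The response to vincristine was described in human neurons that lacked DLK and still had LZK. The 4 vincristine and 4 untreated libraries of the DLK knockout (DLK KO) line were chosen by their labels, 8 of the 61 samples in the series, and all genes that passed the filter on low counts were tested. The neurons were made from WTC11, a widely used line of human iPSCs (reprogrammed pluripotent cells), by switching on the transcription factor NGN2 from a cassette under doxycycline control. All 4 lines of the experiment carried that cassette: wild type (WT), DLK KO, LZK KO and a line without both genes (double KO), each with 4 untreated and 4 vincristine libraries. On day 14 vincristine was added at 5 nM, or DMSO vehicle (untreated), and RNA was taken 16 hours later. The labels do not say whether a knockout line is 1 clone, or whether replicates came from separate differentiations, so the p-values below measure only the spread between these libraries. Vincristine and untreated cultures of each line are compared within that line, and a difference between lines is tested as a difference between their vincristine effects.

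DLK (gene MAP3K12) and LZK (gene MAP3K13) are closely related kinases at the top of the JNK cascade. In neurons they respond to injured axons and to disturbed microtubules, and JNK then phosphorylates AP-1 and ATF transcription factors, JUN among them, that switch on stress and cell death genes. Vincristine binds tubulin and takes microtubules apart. With DLK deleted, LZK is the member of the pair that is left, and the double KO shows what vincristine does when neither is present.

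The targeted genes matched the labels. MAP3K12 RNA (GRCh38 chromosome 12, 53479669 to 53500063, minus strand) stood at 26.3 ± 2.48 CPM in untreated DLK KO (SD, n = 4; CPM, gene counts divided by TMM-scaled library size in M) and at 91.0 ± 2.23 in untreated WT. MAP3K13 RNA (chromosome 3, 185282941 to 185489097, plus strand) was not reduced in DLK KO: its 4 untreated libraries held 107, 110, 102 and 104 CPM, and its 4 vincristine libraries 133, 137, 127 and 139. The vincristine libraries all lay above the untreated ones, with a log2 fold change of 0.34 ± 0.06 (SE, adjusted p = 0.000108). In WT the log2 fold change of MAP3K13 was 0.49, and the difference between the lines was not called (adjusted p = 0.213). ATF2, a JNK substrate, stood at 71.0 ± 5.93 CPM in untreated DLK KO against 141 ± 14.0 in untreated WT, and the 71 tested genes within 5 Mb of it on chromosome 2 had a median log2 difference of -0.84 between these groups. With vincristine ATF2 had a log2 fold change of -0.11 in DLK KO, not called, and the median of those neighbours was -0.08.

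Some facts of the libraries bear on what follows. Total counts ran from 8.77 to 11.2 M in the DLK KO libraries and from 8.41 to 14.6 M over the 32 libraries of the experiment. WT vincristine replicate 4 stood apart, with a sample quality weight of 0.118 against 0.806 to 1.70 in DLK KO libraries. It enters the shared estimate of spread, so the main counts are also given without it. So are the list counts of DLK KO calls given below, where they move by over 1.5 times or from 0. Summed neuron markers ran from 13313 to 14431 CPM in untreated and from 14118 to 14974 CPM in vincristine DLK KO. Most of that sum was NEFM, at 8424 CPM untreated and 8995 with vincristine. Of the 11 neuron markers, 0 were called higher and 1 lower in DLK KO (4.24% and 2.28% of all genes). Summed markers of astrocytes stayed at or under 5.51 CPM, of GABAergic neurons at or under 6.60 and of fibroblasts at or under 2.43. Summed dividing cell markers ran from 33.5 to 41.4 CPM. Glutamatergic neuron markers summed to 666 to 686 CPM untreated and 708 to 740 with vincristine. Oligodendrocyte markers summed to 23.3 to 26.6 and 28.8 to 32.6 CPM, mostly MBP (21.9 and 25.0). Pluripotent stem cell markers summed to 19.3 to 23.2 and 18.6 to 19.5 CPM. Summed peripheral sensory neuron markers differed between lines: they ran from 281 to 328 CPM untreated and 315 to 333 CPM with vincristine in DLK KO, from 462 to 496 and 127 to 242 in WT, from 149.9 to 189 and 139.7 to 163 in LZK KO, and from 439 to 467 and 435 to 468 in double KO. Most of the DLK KO sum was POU4F1, at 193 CPM untreated and 217 with vincristine. The part of these markers in the differences between lines was not tested. Summed progenitor markers rose from 227 to 296 CPM without the drug to 522 to 636 CPM with it, and most of that sum was the intermediate filament gene NES, at 226 CPM without and 536 with vincristine. In bulk RNA, fewer cells of a type and less RNA per cell cannot be told apart.

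Vincristine changed many genes in DLK KO, in numbers below those of WT. Of 18235 genes tested, 1190 were called in DLK KO (6.53%, adjusted p under 0.05 with edgeR), of which 774 were higher and 416 lower. In WT, 5498 were called (30.2%). Most DLK KO changes were small, with a median absolute log2 fold change of 0.43 among called genes, and 113 reached 2-fold (72 higher, 41 lower). Of the 1190 genes, 559 (47.0%) were called in WT in the same direction, 89 in the opposite direction and 542 were not called in WT. Seen from WT, those 559 are 10.2% of its calls. The count depended on the spread estimate: it was 2591 without WT vincristine replicate 4 (all 1190 among them), 3207 when only the 8 DLK KO libraries were fitted, and between 598 and 981 when 1 of those 8 was left out.

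The DLK KO response also moved with base composition. Across 18196 genes with a value (99.8%), the log2 fold change in DLK KO had a Spearman correlation of 0.40 with the GC content of the longest transcript, against 0.20 in LZK KO, -0.09 in WT and -0.16 in double KO. Genes are not independent replicates, and all points come from the same libraries. The median log2 fold change climbed from -0.12 in the eighth of genes with the lowest GC content to 0.26 in the highest eighth, where 199 genes were called higher and 3 lower. With offsets that remove each library's trend with GC content, 1012 genes were called and 798 of the 1190 were among them. Of the 542 genes not called in WT, 318 (58.7%) were still called with the offsets in the same direction, and of the 558 with a GC value that were called alike in both lines, 440 (78.9%). Of the 89 called in WT in the opposite direction, 39 (43.8%) kept their DLK KO call and direction with the offsets. Where the offsets end a DLK KO call of a gene named below, or a difference between lines that is given for it, this is said beside the call.

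**Figure D1:**
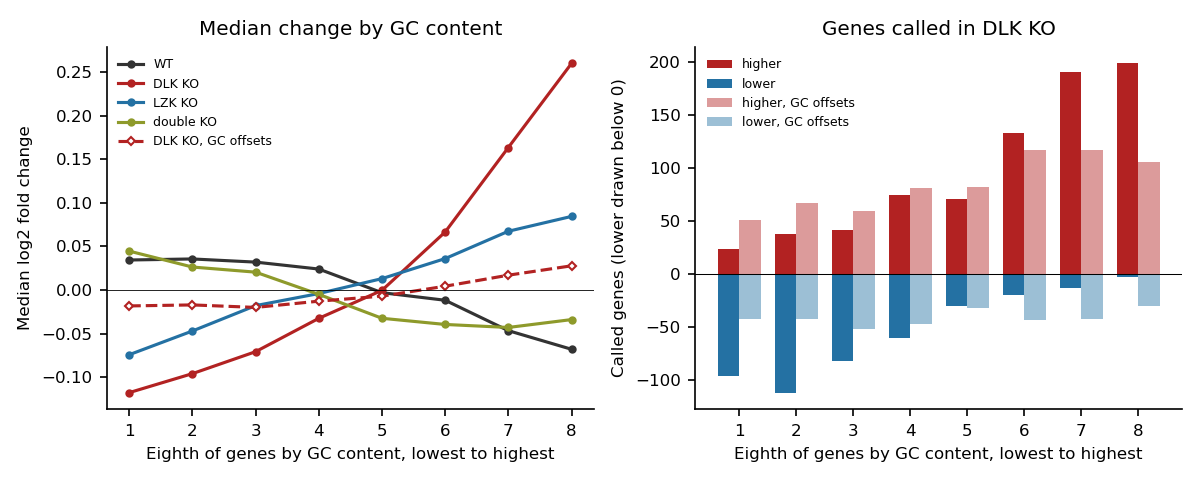
Left, the median log2 fold change with vincristine (y axis) in each eighth of tested genes ordered by GC content (x axis), for 4 lines and for DLK KO with GC offsets. Right, the number of genes called in DLK KO per eighth, higher above 0 and lower below, without (solid) and with (pale) offsets; in the highest eighth 199 were higher and 3 lower without offsets, and 106 and 30 with them.

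Among genes within the limits given next, the highest fold changes that remained without DLK were led by AP-1 and ATF factor genes and by the cell death gene HRK. The 12 highest fold changes in DLK KO belonged to HRK, ATF3, JUN, CREB5, DUSP16, MET, SLC7A11, STC2, SH2D3C, ADCY8, EIF2AK3 and YPEL4, among genes with a mean log2 CPM of at least 1 whose libraries did not overlap (19.5% of all genes had libraries apart, 11.4% higher and 8.08% lower). All 12 were also called higher in WT, with a smaller rise in DLK KO called for 9 of them, while over all genes the DLK KO minus WT difference was called for 19.4% (9.95% higher and 9.41% lower). With GC offsets the difference was no longer called for CREB5 (adjusted p = 0.0945). In double KO none of the 12 was called, with log2 fold changes from -0.14 to 0.52. For 10 the difference between double KO and DLK KO was called (1.14% of all genes, 1.01% lower in double KO). For SLC7A11 and STC2 its adjusted p was 0.0877 for each. The 12 were chosen by their DLK KO effect, and the same libraries enter this difference, so a called difference tends to oppose that effect. Across all genes 12 were called in double KO by edgeR (0.0658%; 0.00548% higher and 0.0603% lower), 1096 at an unadjusted p under 0.05, 15 by DESeq2 and 67 by voom with sample quality weights. A fit of only the 8 double KO libraries called 1028 genes in double KO (591 higher, 437 lower), and of the 12 genes it called JUN, as higher. In LZK KO, which keeps DLK, the effect differed from DLK KO by a called amount for 1 of the 12, ADCY8 (0.0658% of all genes). Log2 fold changes in LZK KO were 2.75 for HRK, 2.41 for ATF3, 2.06 for CREB5 and 2.06 for DUSP16. They were 3.32 for SLC7A11, 2.38 for STC2, 1.75 for EIF2AK3, 1.15 for YPEL4 and 0.39 for ADCY8.

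JUN encodes the AP-1 subunit that JNK phosphorylates, and it drives its own transcription. The 4 untreated DLK KO libraries held 48.2, 57.9, 60.5 and 54.4 CPM of JUN, and the 4 vincristine libraries 242, 237, 208 and 221. Every vincristine library lay far above every untreated one. The log2 fold change was 2.04 ± 0.14 (adjusted p = 1.71e-11) beside 1.86 ± 0.14 in WT, and the difference of 0.18 ± 0.19 was not called (adjusted p = 0.560). The level was lower at both ends: untreated DLK KO had 39.5% of the WT level, and vincristine brought it to 44.8% of the WT vincristine level. In double KO, JUN went from 39.6 ± 2.59 to 46.0 ± 1.15 CPM (log2 fold change 0.22 ± 0.14), and the difference from DLK KO was -1.82 ± 0.20 (adjusted p = 1.53e-06).

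HRK, a BH3-only protein that promotes neuronal apoptosis, had the highest fold change of the 12 genes. It stood at 8.13, 9.77, 6.45 and 7.21 CPM in untreated DLK KO and at 40.8, 40.2, 31.4 and 38.1 with vincristine. The groups were far apart, with a log2 fold change of 2.25 ± 0.14 (adjusted p = 3.71e-14) against 2.98 ± 0.12 in WT. Since its untreated level was 18.2% of WT, its vincristine level of 37.6 ± 4.31 CPM was below even the untreated WT level of 43.4 ± 3.50 and was 11.0% of the 341 ± 61.7 CPM of WT with vincristine. In double KO it was 3.42 ± 0.345 CPM without and 4.19 ± 0.848 with the drug.

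ATF3, a stress-induced partner of JUN, rose from 4.97, 5.98, 4.60 and 3.66 CPM to 26.1, 19.9, 17.1 and 22.8 CPM. Every vincristine library exceeded every untreated one, and the log2 fold change was 2.15 ± 0.13 (adjusted p = 1.72e-14). WT changed by 3.98 ± 0.11, a difference of -1.82 ± 0.18 (adjusted p = 1.51e-09), and DLK KO ended at 9.67% of the WT vincristine level. CREB5, a further ATF family factor, rose from 10.0, 14.4, 11.5 and 8.28 CPM to 47.1, 45.2, 41.6 and 46.8. Its libraries did not overlap; the log2 fold change of 2.03 ± 0.12 compares with 2.58 ± 0.11 in WT, and double KO showed -0.02 ± 0.15.

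DUSP16, a phosphatase that acts on JNK, rose in DLK KO from 17.6, 24.0, 17.9 and 16.8 CPM to 84.1, 80.7, 63.3 and 77.4 CPM. The change was 2.00 ± 0.10 on the log2 scale (adjusted p = 4.58e-17), against 2.41 ± 0.09 in WT. DUSP8, another phosphatase of JNK, rose from 38.6, 48.6, 54.8 and 53.7 CPM to 131, 128, 99.9 and 116. Its log2 fold change of 1.28 ± 0.18 was called, and no difference from the 1.21 ± 0.18 of WT was called (adjusted p = 0.890). JUND, a JUN relative, rose by 1.12 ± 0.16 in DLK KO and 0.82 ± 0.16 in WT on the log2 scale. SH2D3C, an adaptor protein, rose by 1.60 ± 0.12 against 1.16 ± 0.11 in WT. EIF2AK3, which encodes the kinase PERK, rose from 40.9 to 44.6 CPM without the drug to 118 to 133 CPM with it, a log2 fold change of 1.57 ± 0.06 beside 1.88 ± 0.06 in WT. MET (a receptor kinase) was low, with 0.265 to 1.08 CPM untreated and 1.14 to 3.62 CPM with vincristine, and its log2 fold change of 1.93 ± 0.34 was called. MET also differed at the start in double KO, at 10.0 CPM untreated.

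**Figure D2:**
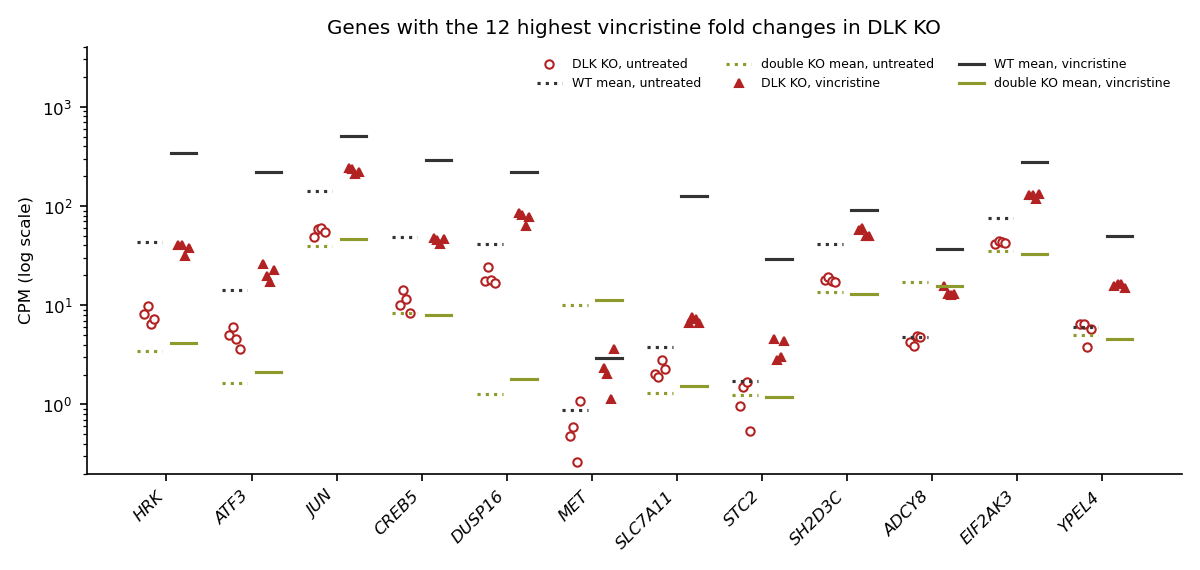
CPM on a log axis (y) of the 12 genes with the highest vincristine fold changes in DLK KO (x). They were ranked among called genes with a mean log2 CPM of at least 1 whose libraries did not overlap. Open circles and filled triangles are the 4 untreated and 4 vincristine DLK KO libraries; dotted and solid bars are the untreated and vincristine means of WT (black) and double KO (green), and for every gene the DLK KO triangles lie above its circles while the double KO bars stay close together.

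Untreated levels of these genes were already lower without DLK. For 8 of the 12 the untreated DLK KO level was called lower than untreated WT (17.9% of all genes were, and 34.5% differed in either direction), and the vincristine level in DLK KO was 5.56% to 77.4% of the WT vincristine level. JUN thus had a fold change beside that of WT and a lower final level.

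Promoter letters are shown for JUN, ATF3 and CREB5 of these 12 genes and for DUSP8, described above, which hold an AP-1 or ATF motif, since JUN and ATF dimers bind such motifs. The 250 bases before the start listed by RefSeq (GRCh38.p14) were searched on both strands for TGACTCA, TGACGTCA, TGACATCA and TTACGTCA, and for TGATGCAAT, the element that ATF4 dimers bind. Of 35116 listed promoters, 4.20%, 1.65%, 2.37%, 0.37% and 0.216% held them in that order, and 8.38% held any of the first 4. Of the 12 highest genes, 10 had listed promoters and 5 of these (ATF3, JUN, CREB5, SH2D3C and YPEL4) had at least 1 with one of the first 4 motifs; of the 12 lowest, 9 were listed and 1 (TUBB2A) had one. A gene with several listed starts has more chances of a match, and HRK, DUSP16, MET, STC2 and EIF2AK3 had none in this window. Each sequence reads 5′ to 3′ towards its gene, with matches in capitals. The JUN (1 listed start) and ATF3 (1 of 2 starts) windows hold TGACATCA beginning 67 and 123 bases before the start, the CREB5 window (1 of 3 starts) TGACTCA at 44, and the DUSP8 window TGACGTCA at 118 and 74.
JUN, chr1:58784048-58784297, minus strand: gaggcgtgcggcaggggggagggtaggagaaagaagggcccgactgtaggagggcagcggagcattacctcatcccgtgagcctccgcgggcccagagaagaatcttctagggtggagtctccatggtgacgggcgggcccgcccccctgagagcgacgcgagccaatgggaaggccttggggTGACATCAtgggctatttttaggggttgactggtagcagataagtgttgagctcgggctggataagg
ATF3, chr1:212565157-212565406, plus strand: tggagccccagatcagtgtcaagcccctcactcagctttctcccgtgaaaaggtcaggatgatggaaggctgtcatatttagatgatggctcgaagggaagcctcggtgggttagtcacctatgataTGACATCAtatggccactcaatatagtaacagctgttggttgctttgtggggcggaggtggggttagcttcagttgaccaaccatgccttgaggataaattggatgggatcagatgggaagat
CREB5, chr7:28685883-28686132, plus strand: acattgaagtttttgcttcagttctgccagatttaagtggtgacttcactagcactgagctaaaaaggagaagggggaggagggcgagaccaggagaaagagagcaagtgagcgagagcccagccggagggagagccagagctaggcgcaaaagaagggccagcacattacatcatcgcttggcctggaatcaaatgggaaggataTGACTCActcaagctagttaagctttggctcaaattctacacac
DUSP8, chr11:1572272-1572521, minus strand: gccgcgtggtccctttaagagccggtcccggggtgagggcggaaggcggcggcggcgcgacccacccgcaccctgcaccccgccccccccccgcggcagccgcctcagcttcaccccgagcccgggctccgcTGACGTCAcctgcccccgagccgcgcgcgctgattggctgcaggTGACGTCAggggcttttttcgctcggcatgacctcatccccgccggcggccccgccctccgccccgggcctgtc

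Of the 16 tested AP-1, ATF and CREB factors, 6 were called higher in DLK KO and 0 lower (over all genes, 4.24% were higher and 2.28% lower), with a median log2 fold change of 0.50 beside 0.64 in WT and -0.002 over all genes in DLK KO. JDP2 (1.34) and MAFF (0.72) were the other called members. Without WT vincristine replicate 4, 8 of the 16 were called higher and 1 lower (1784 and 807 of 18663 genes). FOS, an immediate early partner of JUN, was at 4.37 CPM untreated and 5.39 with vincristine (log2 fold change 0.30, not called) and changed by 2.91 in WT. Of the 22 genes of the MAP3K and JNK cascade, 8 were called higher: DUSP16, DUSP8, the scaffold MAPK8IP1 (0.68), DUSP1 (0.63), DUSP5 (0.62), the JNK kinase MAP2K7 (0.49), DUSP10 (0.45) and MAP3K13. The JNK genes themselves, MAPK8 (-0.06), MAPK9 (-0.09) and MAPK10 (-0.04), were not called.

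Of the 15 tested BCL2 family genes, 5 were called higher in DLK KO and 0 lower (4.24% and 2.28% of all genes). All 5 encode BH3-only proteins that start apoptosis. BBC3 (PUMA) stood at 3.92, 3.29, 3.71 and 4.52 CPM untreated and at 13.0, 10.1, 7.96 and 10.7 with vincristine. The groups were apart, with a log2 fold change of 1.43 ± 0.19 against 2.58 ± 0.16 in WT. BCL2L11 (BIM) rose from 11.3, 16.9, 9.28 and 11.0 CPM to 28.9, 30.9, 26.6 and 28.1, again without overlap, by 1.25 ± 0.12 against 2.44 ± 0.13 in WT. For HRK, BBC3 and BCL2L11 the smaller rise than in WT was called, and so was the difference from double KO, where the log2 fold changes were 0.26, -0.09 and 0.04. PMAIP1 (1.20 ± 0.36, adjusted p = 0.0416) and BMF (0.93 ± 0.19) rose as well, the first at 0.931 CPM untreated and no longer called when any 1 of 7 of the 8 DLK KO libraries was left out. BIK, called in WT at 2.53, was at -0.38 in DLK KO, where its untreated level of 1.49 CPM was higher than in WT by 4.74 on the log2 scale. The multidomain members BAX (0.02) and BAK1 (-0.22) and the survival genes BCL2 (0.17), BCL2L1 (0.09) and MCL1 (0.12) were not called.

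Of the 22 tested genes of the axon injury response, 8 were called higher in DLK KO and 0 lower, with a median of 0.38 (WT 0.25). Over all genes 4.24% were called higher in DLK KO and 2.28% lower. The effect was called higher than in WT for 5 of the 22 and lower for 7 (9.95% and 9.41% of all genes). STMN4, a stathmin that binds tubulin, rose from 183, 185, 170 and 159 CPM to 383, 374, 392 and 377 CPM. Its log2 fold change of 1.13 ± 0.06 stood beside 1.19 ± 0.06 in WT (adjusted p of the difference 0.681), and in double KO, with 13.3 CPM untreated, it was 0.41 ± 0.08. SOX4, a developmental transcription factor, rose in DLK KO by 0.66 ± 0.12 and not in WT (-0.12 ± 0.12), a difference that was called (adjusted p = 0.00119). GADD45A (0.61), SMAD1 (0.46) and VGF (0.57) rose, with 1.76, 1.86 and 1.14 in WT. GAP43, the growth cone gene, was not called (0.17).

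Tubulin genes also fell in DLK KO, and they fell in double KO too. Of the 12 tested alpha and beta tubulins, 10 were called lower in DLK KO and 0 higher (over all genes 2.28% were lower and 4.24% higher). The median log2 fold change was -1.38, beside -1.52 in WT (10 lower, with 14.5% of all genes lower and 15.7% higher). It was -0.93 in LZK KO (8 lower, with 3.88% of all genes called there, 2.27% higher and 1.61% lower). In double KO it was -1.45 (8 lower, with 0.0603% of all genes lower and 0.00548% higher). TUBA1B, the most reduced, stood at 391, 349, 387 and 352 CPM in untreated DLK KO and at 85.0, 81.0, 109 and 90.3 with vincristine. It fell by 2.02 ± 0.11 on the log2 scale (adjusted p = 1.69e-15), and no difference from WT was called (adjusted p = 0.217). TUBB fell from 1144 ± 61.5 to 345 ± 31.7 CPM and TUBA1A from 3216 ± 161 to 1016 ± 134. The neuronal isotype TUBB3 fell by 0.80 and the gamma tubulin TUBG1 by 1.18. TUBB6, called higher in WT (0.95), was not called in DLK KO (0.12). Tubulin genes and pseudogenes share near-identical sequence, so reads may be split between them, and values of single members are uncertain; the pseudogenes TUBBP1 (-1.59) and TUBAP2 (-2.12) were also called lower.

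**Figure D3:**
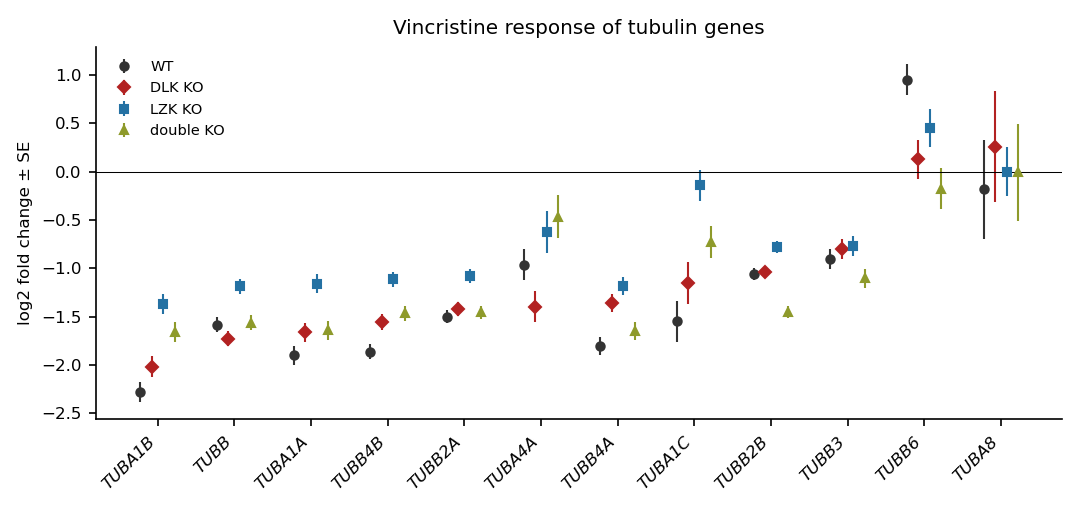
Log2 fold change with vincristine (y, bars are SE) of 12 tubulin genes (x, ordered by DLK KO) in WT, DLK KO, LZK KO and double KO. In DLK KO 10 genes lie below 0, from -0.80 for TUBB3 to -2.02 for TUBA1B, while TUBB6 and TUBA8 lie above 0.

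To measure how much of the response remained, genes were also chosen in libraries that no comparison here uses. In the second experiment of the series, WTC11 neurons with CRISPR interference and a scrambled guide RNA (Control gRNA) received the same drug dose, and 35.3% of 20759 genes were called, 1045 (5.03%) with at least 2-fold change. Of these, 770 were tested here. In DLK KO 176 were called in the direction of Control gRNA (6.53% of all genes were called in either direction). They divide into 67 with no called difference from WT and 109 whose effect differed from WT by a called amount. Another 238 were not called in DLK KO and differed from WT, 353 met neither criterion and 3 were called in the opposite direction. With GC offsets these classes held 61, 110, 244, 354 and 1 genes. The last class held 9 genes without WT vincristine replicate 4 and 11 when only the groups compared were fitted. For the 629 genes higher in Control gRNA the median log2 fold change in DLK KO was 0.39, set beside 1.08 in WT, 0.40 with LZK deleted and 0.05 with both deleted. For the 141 lower genes it was -0.10, beside -1.13, -0.25 and -0.01.

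The 67 genes with a called change and no called difference from WT were 57 higher and 10 lower ones. Of the 57 higher ones (median 0.84 in DLK KO, 1.00 in WT, 0.03 in double KO), 18 differed from double KO by a called amount, and the rest did not. Over all genes this difference was called for 1.14% (1.01% lower in double KO). Among the 18 were JUN, MET, DUSP8 and STMN4. The 57 were chosen by DLK KO calls, and the same libraries enter this difference. PIRT, known from sensory neurons, was low, at 0.61 CPM untreated and 1.96 with vincristine (log2 fold change 1.67), and its difference from double KO was not called. Of the 10 lower ones (median -1.57 in DLK KO and -1.45 in double KO), 8 were tubulin genes or pseudogenes, with TUBAP2, TUBA1B and TUBB lowest. The vincristine level of the 57 was at the median 63.9% of that in WT.

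**Figure D4:**
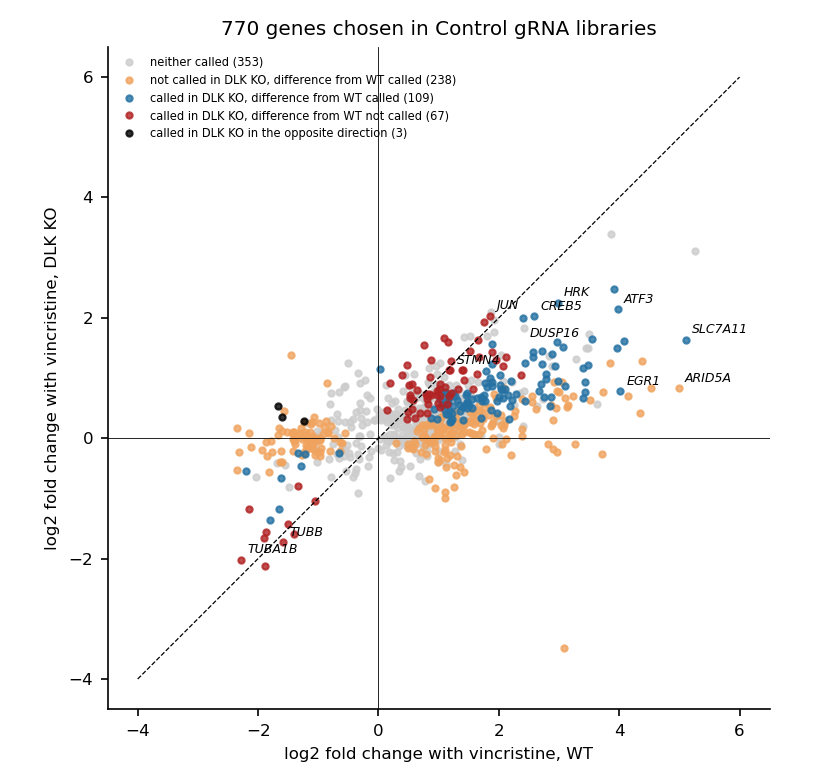
Log2 fold change with vincristine in DLK KO (y) against WT (x) for 770 genes chosen in Control gRNA libraries, coloured by class with the number of genes; the dashed line marks equal change. JUN and the tubulin genes lie near the line, ATF3, HRK and CREB5 below it, and ARID5A, EGR1 and SLC7A11 well below it.

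In the class that was not called in DLK KO and differed from WT, the 6 genes with the largest WT fold changes were ARID5A, TNFRSF12A, GEM, the pseudogene CNOT6LP1, ABCB1 and FAM129A. ARID5A, an RNA-binding regulator, held 0.861, 1.30, 1.15 and 1.29 CPM untreated and 2.23, 1.62, 2.10 and 2.29 with vincristine. These libraries did not overlap, yet the log2 fold change of 0.83 ± 0.35 was not called (adjusted p = 0.142), while WT went from 2.11 to 67.2 CPM; without WT vincristine replicate 4 it was called (adjusted p = 0.0387). TNFRSF12A (Fn14, an injury-induced receptor) reached 1.06 CPM in DLK KO and 14.0 in WT. ABCB1, the drug efflux pump, reached 1.10 CPM against 15.7 in WT. The differences between DLK KO and WT were -4.15 ± 0.47 for ARID5A, -3.69 ± 0.52 for TNFRSF12A and -3.45 ± 0.47 for ABCB1. UNC5B, a netrin receptor, had a log2 fold change of 0.78 ± 0.26 in DLK KO, not called, and 3.73 ± 0.22 in WT, a difference of -2.95 ± 0.35.

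The integrated stress response, in which phosphorylated eIF2 raises ATF4 and its amino acid and stress targets, was much reduced without DLK. Of 24 genes tested, 23 were called higher in WT (15.7% of all genes) with a median of 1.82. In DLK KO 12 were higher and 0 lower (4.24% and 2.28% of all genes), with a median of 0.37 (LZK KO 0.53, double KO 0.02). For 23 of the 24 the effect in DLK KO was called smaller than in WT, and a lower effect was called for 9.41% of all genes. ATF4 itself was at 215, 215, 175 and 168 CPM untreated and at 185, 177, 200 and 180 with vincristine. The groups overlapped, with a log2 fold change of -0.06 ± 0.09, while WT changed by 1.09 ± 0.09. DDIT3 (CHOP) went from 10.9 ± 1.23 to 15.7 ± 0.84 CPM, and its log2 fold change of 0.52 ± 0.18 was not called (adjusted p = 0.0702), beside 3.14 in WT. SLC7A11, the cystine transporter, rose from 2.01, 1.89, 2.83 and 2.26 CPM to 6.60, 7.68, 7.26 and 6.67. The libraries did not overlap, and the log2 fold change of 1.64 ± 0.23 differed from that of WT, where it reached 127 CPM, by -3.47 ± 0.32. PHGDH, of serine synthesis, rose by 0.76 and TRIB3 by 0.61, against 2.38 and 2.44 in WT. With GC offsets 8 of the 24 were called; CHAC1, SHMT2, DDIT4, SLC3A2 and SLC7A3 lost the call, and ALDH1L2 gained one. The SLC7A3 libraries overlapped, with 3.36 CPM in untreated replicate 3 and 2.54 in vincristine replicate 3.

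Aminoacyl-tRNA synthetases, many of them ATF4 targets, followed. In WT 12 of 20 were higher, and in DLK KO 2 (CARS at 0.32 and MARS at 0.22), with medians of 0.36 and 0.01; MARS was not called with GC offsets, and without WT vincristine replicate 4 the DLK KO count was 4. Immediate early genes had a median of 1.37 in WT (10 of 13 higher) and 0.30 in DLK KO (4 higher, 0 lower). Over all genes 15.7% were called higher in WT, and in DLK KO 4.24% were higher and 2.28% lower. EGR1 rose from 25.1, 29.9, 21.0 and 25.4 CPM to 48.7, 43.9, 39.6 and 42.8, with no overlap. Its log2 fold change was 0.79 ± 0.15 (adjusted p = 0.00123) and that of WT 4.01 ± 0.16. IER2 (0.62), BTG2 (0.65) and ARC (0.64) were the other called members, and ARC lost its call with GC offsets.

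More ER chaperone genes were called lower in WT than in DLK KO. Of 20 ER chaperone and unfolded protein genes, 14 were lower in WT (median -0.71) and 6 in DLK KO (median -0.19), with a called difference towards a smaller fall, or a rise, for 13. Over all genes 14.5% were called lower in WT and 2.28% in DLK KO. The DLK KO effect was called higher than in WT for 9.95% of all genes and lower for 9.41%. HSPA5 (BiP), the main ER chaperone, stood at 251, 226, 220 and 222 CPM untreated and at 184, 182, 179 and 183 with vincristine. The groups were apart but the fall was small, 0.34 ± 0.06 on the log2 scale against 1.32 ± 0.06 in WT. XBP1, HERPUD1 and EDEM1, called higher in WT by 1.22 to 1.73, had log2 fold changes of 0.11, 0.11 and 0.02 in DLK KO and were not called. Of 15 heat shock genes, 8 were lower and 1 higher in WT (median -0.31). The median in DLK KO was 0.08, from HSPE1 at -0.21 to HSPA1B at 0.37, neither called. The effect was called higher than in WT for 5 and lower for 1. Without WT vincristine replicate 4, 2 heat shock genes and 1 ER chaperone or unfolded protein gene were called higher in DLK KO (1784 of 18663 genes were).

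Cholesterol synthesis genes fell in WT and not in DLK KO. Of 19 tested, 17 fell in WT (median -1.11), while in DLK KO 0 fell and 4 rose (median 0.11), and the difference was called for 18. Over all genes 14.5% were called lower in WT, and in DLK KO 2.28% were lower and 4.24% higher. The difference was called for 19.4% of all genes. The untreated level was already low: 18 of the 19 were lower in untreated DLK KO than in untreated WT (17.9% of all genes were), with a median log2 difference of -0.78. INSIG1, a sterol-responsive regulator, held 123, 111, 140.4 and 144 CPM untreated and 112, 118, 122 and 118 with vincristine in DLK KO. These groups overlapped (log2 fold change -0.14 ± 0.09, not called), and in WT INSIG1 fell by 2.11 ± 0.09, from 189 ± 21.2 to 43.7 ± 5.70 CPM, which is below DLK KO. Genes that rose in DLK KO included SREBF2 (0.54), MVD (0.53) and DHCR7 (0.29), and DHCR7 was not called with GC offsets. In double KO the median was 0.19, and 11 were called higher when only its own libraries were fitted.

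**Figure D5:**
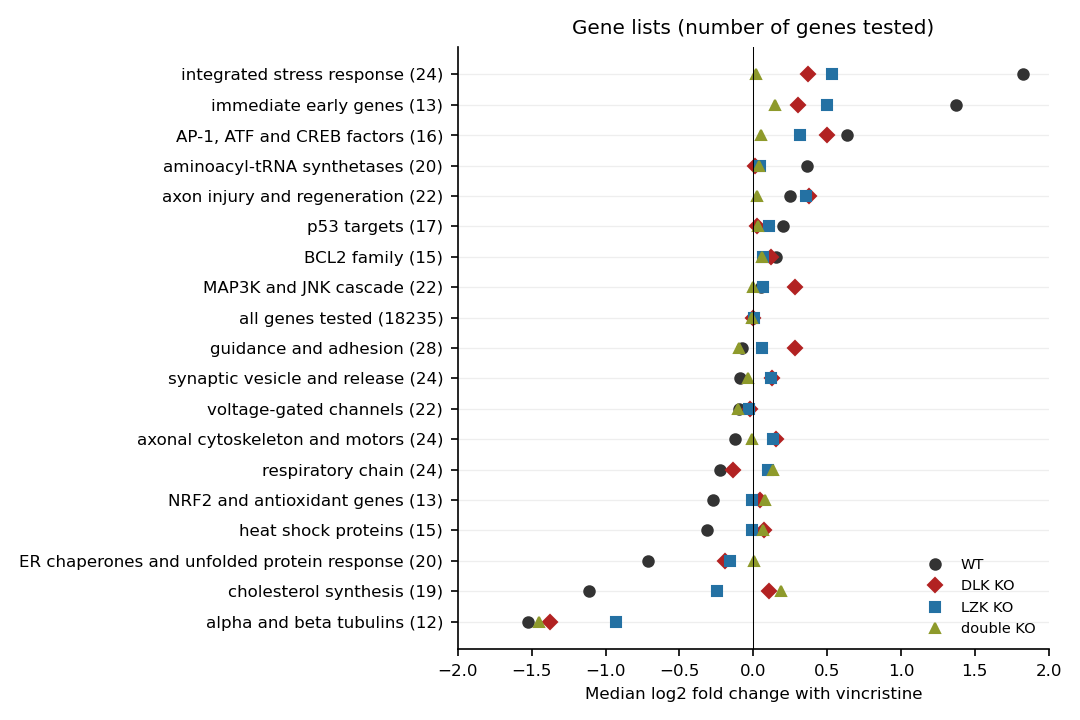
Median log2 fold change with vincristine (x) of each gene list (y, with the number of genes tested) in WT, DLK KO, LZK KO and double KO. The DLK KO medians of the AP-1 factors (0.50) and tubulins (-1.38) lie beside the WT medians of 0.64 and -1.52, and those of the integrated stress response (0.37 against 1.82) and of cholesterol synthesis (0.11 against -1.11) lie apart from WT.

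The lists of neuronal structure and function had medians near 0 in WT, and some of their members rose in DLK KO. Of 24 axonal cytoskeleton and motor genes, 6 were called higher in DLK KO and 0 lower, with a median of 0.15 (WT -0.12): STMN4, KIF5C (0.41), DCTN1 (0.43), KIF5A (0.31), MAP1B (0.30) and INA (0.26). KIF5C, a kinesin heavy chain, rose from 965 to 1281 CPM and was at 2729 CPM in untreated WT. Without WT vincristine replicate 4, 13 of the 24 were called higher, as were 9 of the synaptic vesicle, 12 of the guidance and adhesion and 4 of the channel genes that follow. Of 24 synaptic vesicle genes, 4 were called higher (SYN3, SYN1, SLC17A6 and RIMS1, 0.25 to 0.57), and of 28 guidance and adhesion genes 6 were higher and 3 lower. EFNB2, an ephrin ligand, had the highest guidance value at 0.92 ± 0.09 with 0.68 ± 0.09 in WT. The 3 lower ones, NRP1, DCC and SEMA3D, lost their calls with GC offsets. Of 17 p53 targets, 4 were higher (BBC3, PMAIP1, SESN2 and BTG2) and 2 lower (TIGAR and MDM2, the latter not with GC offsets). CDKN1A, called in WT at 3.24, was not called in DLK KO (0.70). Of 22 voltage-gated channel genes 2 were higher and 2 lower, and of 13 antioxidant genes 2 were higher, SLC7A11 among them. Beside these list counts, 4.24% of all genes were called higher in DLK KO and 2.28% lower. Without WT vincristine replicate 4, 1784 of 18663 genes were called higher.

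Other genes fell with vincristine in WT and were not lower in DLK KO. The 5 highest differences between DLK KO and WT were TICRR (2.94 ± 0.35), LIPG (2.78 ± 0.28), PCDH8 (2.52 ± 0.20), LRP2 (2.31 ± 0.53) and SH2D5 (2.24 ± 0.39). PCDH8, a protocadherin, held 50.7, 47.3, 69.9 and 65.5 CPM untreated and 71.4, 66.7, 61.0 and 63.7 with vincristine in DLK KO. These overlapped, and WT fell from 59.4 to 11.6 CPM. LIPG, an endothelial-type lipase, stood at 5.02 CPM untreated and 6.31 with vincristine, against 14.7 and 2.65 in WT. TICRR, LIPG, LRP2 and SH2D5 were lower in untreated DLK KO than in untreated WT, with log2 differences from -1.60 to -0.89, and LRP2 had log2 fold changes of 1.29 in DLK KO (adjusted p = 0.0437) and -1.02 in WT. The DLK KO call of LRP2 ended without any 1 of the 8 DLK KO libraries (0.0565 to 0.129), with the replicate block (0.0506) and with voom (0.0631).

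What deleting LZK as well removed was tested as the double KO effect minus the DLK KO effect. This was called for 207 genes (1.14%), of which 184 were lower in double KO (1.01%) and 23 higher (0.126%), and 1460 were called without WT vincristine replicate 4 (368 with GC offsets). Of the 1190 genes called in DLK KO, 200 had a called difference, and 199 of these opposed the DLK KO effect. The 1190 were chosen by their DLK KO effect, and the same libraries enter this difference, so a called difference tends to oppose that effect. The count is therefore not independent of that choice. The same holds for the 12 highest genes and the 57 higher genes described above. The 5 lowest differences were CREB5 (-2.05 ± 0.19), HRK (-1.99 ± 0.25), NUTM2A (-1.82 ± 0.37), JUN (-1.82 ± 0.20) and ATF3 (-1.78 ± 0.28). NUTM2A belongs to a family of near-identical copies, so its reads are uncertain, and it held 0.574 to 1.61 CPM untreated and 1.62 to 3.41 with vincristine. The 5 highest differences were FAM162A, ID2, AIMP2, TFRC and VWC2L, each between 0.71 and 0.74. Those of FAM162A and VWC2L were no longer called when any 1 of 12 and any 1 of 8 of the 16 libraries, respectively, was left out. All of them were called lower in DLK KO (log2 fold change -0.31 for TFRC to -0.58 for FAM162A) and were not called in double KO (0.17 to 0.41), and TFRC lost its DLK KO call with GC offsets. ID2, an inhibitor of bHLH factors, went from 38.9, 33.7, 35.5 and 34.0 CPM to 26.5, 22.6, 32.3 and 24.9. NES, also used as a progenitor marker, rose by 1.25 ± 0.14 in DLK KO and had a log2 fold change of -0.12 ± 0.14 in double KO (difference -1.37 ± 0.20, adjusted p = 0.000189).

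LZK KO, which keeps DLK, was compared with DLK KO in the same way. Of the 1190 DLK KO calls, 340 (28.6%) were called in LZK KO in the same direction, which is 48.1% of the 707 calls in LZK KO. The difference between the 2 effects was called for 12 genes (0.0658%; 0.0274% higher and 0.0384% lower in LZK KO), 55 without WT vincristine replicate 4 and 45 with GC offsets, and a p that misses the threshold does not show that the lines respond alike. EGR1 had a higher effect in LZK KO (2.19 ± 0.19) than in DLK KO, by 1.41 ± 0.24 (adjusted p = 0.0182), and reached 29.2 CPM there against 43.7 in DLK KO. ADCY8, an adenylate cyclase, rose in DLK KO from 4.21, 3.89, 4.95 and 4.73 CPM to 15.4, 13.0, 12.6 and 13.1. In LZK KO it stood at 78.3 CPM untreated and 103 with vincristine, and the difference was -1.21 ± 0.20 (adjusted p = 0.00744). TUBB fell less in LZK KO, by a difference of 0.54 ± 0.11 (adjusted p = 0.0332), which was not called with GC offsets (0.134), with the replicate block (0.0789) or when any 1 of 10 of the 16 libraries was left out. PAPPA (0.72), CDH13 (0.63) and UTRN (0.47) had higher effects in LZK KO, and LIPG (-1.37), HTR5A (-1.32), NCR3LG1 (-0.75) and PRUNE2 (-0.74) lower ones. Of the 10 named differences between these lines, 8 lost their call under at least 1 alternative, and those of ADCY8 and PRUNE2 did not. The block ended the calls of CDH13 and LIPG (0.0839 each), HTR5A (0.0574) and UTRN (0.0512), and EGR1 lost its call only without LZK KO vincristine replicate 2 (0.0598).

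Among the 12 genes lowest in DLK KO within the same limits, 9 were tubulin genes, 1 a tubulin pseudogene (TUBBP1) and 2 other pseudogenes. HMGB1P24 fell from 3.67 to 1.56 CPM and shares its sequence with an expressed parent gene, so its reads are uncertain.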

How the data were processed

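Neurons were harvested as bulk RNA, and poly(A) libraries were made with a stranded kit and sequenced as paired reads, per the labels' protocols. The authors deposited raw counts per gene. The submitters' processing notes name cutadapt 3.4, STAR, featureCounts, Subread 2.0.1 and GRCh38; the strand setting, annotation release and treatment of duplicates are not given in the sources used here. Gene symbols were taken by Ensembl ID.

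All 32 libraries of experiment 1 entered 1 edgeR 4.0.16 fit (R 4.3.3; TMM, filterByExpr, 8 groups, robust quasi-likelihood test), which left 18235 genes. Contrasts were the vincristine effect in each line and differences between lines, with Benjamini-Hochberg adjustment over all genes and a threshold of 0.05. ± after a log2 fold change is its standard error. Alternatives used limma 3.58.1 (voom with sample quality weights), DESeq2 1.42.0, other filters and scalings, a replicate block, left-out libraries and, chosen after seeing the data, GC content offsets and a fit without WT vincristine replicate 4. The Control gRNA genes came from a separate fit of experiment 2. Figures used matplotlib 3.10.9. The scripts were tested on simulated data.

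Named genes were the 12 highest and 12 lowest called fold changes in DLK KO (mean log2 CPM of at least 1, libraries apart), the 5 lowest and 5 highest called differences between lines, 6 genes from each of 2 classes of the Control gRNA list, the targeted genes and members of the lists. A Y-linked pseudogene among the 12 lowest is given without its level. Members and lists were chosen with earlier results of these data known. Values of some list members are not reported here.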

Additional observations from a re-analysis of the deposited data

Results flagged for a closer look

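Single libraries stood apart from the other 3 of their group for 4 of 132 sets of 4 values tested, where chance flags about 1 in 20, judged by the gap to the nearest other library as a share of the range. For DUSP16, untreated DLK KO replicate 2 held 24.0 CPM against 16.8 to 17.9 in the others, a gap of 0.84 of the range. For ADCY8, vincristine replicate 1 held 15.4 CPM against 12.6 to 13.1 (0.837). For SH2D5, vincristine replicate 3 held 5.16 CPM against 3.69 to 3.91 (0.852). For UTRN, vincristine replicate 1 held 76.4 CPM against 69.2 to 69.6 (0.945).

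The vincristine effect differed between lines by edgeR's test of the difference itself for the genes named above. For DLK KO minus WT the log2 differences were -4.15 for ARID5A, -3.47 for SLC7A11, -3.45 for ABCB1, -3.22 for EGR1 and -2.95 for UNC5B, and 2.94 for TICRR, 2.78 for LIPG, 2.52 for PCDH8, 2.31 for LRP2 and 2.24 for SH2D5. For double KO minus DLK KO they were -2.05 for CREB5, -1.99 for HRK, -1.82 for NUTM2A, -1.82 for JUN and -1.78 for ATF3, and 0.74 for FAM162A, 0.73 for ID2, 0.72 for AIMP2, 0.72 for TFRC and 0.71 for VWC2L. For LZK KO minus DLK KO they were -1.37 for LIPG, -1.32 for HTR5A, -1.21 for ADCY8, -0.75 for NCR3LG1 and -0.74 for PRUNE2, and 1.41 for EGR1, 0.72 for PAPPA, 0.63 for CDH13, 0.54 for TUBB and 0.47 for UTRN.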

How the results depend on the processing

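The 1190 genes called in DLK KO became 3583 with voom and sample quality weights, 3207 with only the DLK KO libraries, 2094 with those and GC offsets, and 598 to 2591 with 1 library left out (598 without DLK KO untreated replicate 1, 659 without untreated replicate 2, 616, 608 and 767 without vincristine replicates 1, 2 and 4, 2591 without WT vincristine replicate 4). RLE factors, the filters, DESeq2 (1653) and GC offsets (1012) kept the count within 1.5 times. The DLK KO minus WT count of 3531 ran from 2914 to 3795 with 1 library left out. Double KO minus DLK KO (207) became 536 without a filter, 368 with GC offsets, 2757 with voom, 429 with DESeq2, 3208 with only the groups compared, 1889 with those and GC offsets, and 114 to 1460 with 1 library left out (1460 without WT vincristine replicate 4, 133, 114 and 135 without DLK KO vincristine replicates 1, 2 and 4, 132 and 131 without double KO untreated replicate 2 and vincristine replicate 4). LZK KO minus DLK KO (12) became 42, 45, 235, 45, 20 and 42 in that order of settings, and 2 to 55 with 1 library left out, where 11 of the left-out libraries moved it past 1.5 times. The Control gRNA count of 176 ran from 131 to 209, and was 594 over all genes called in Control gRNA. The causes were not tested.

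With the replicate number as a block the counts were 956, 3245, 177, 6 and 163 in the same order. Same-numbered DLK KO libraries deviated together with correlations of -0.05 to 0.07, and 2 of the 4 pairs matched their own number best. So few weak values cannot show whether same-numbered libraries shared a differentiation or a batch. Single-gene checks covered genes picked by rank, class or target and some list members, but not every list member named above. None of the called fold changes or differences checked reversed under any alternative. Sign changes of uncalled values were not counted. Of 47 DLK KO calls checked, 8 were lost at least once (LRP2, HTR5A, TFRC, PMAIP1, PRUNE2, NUTM2A, ID2 and TUBAP2). Further list members that lost their calls with GC offsets are given above. Of 70 differences between lines checked, 21 were lost at least once: 8 of 37 for DLK KO minus WT (CREB5, DUSP16, EIF2AK3, TUBB4A, TUBG1, TFRC, CDH13 and FAM129A), 5 of 23 for double KO minus DLK KO (FAM162A, VWC2L, MET, AIMP2 and JUND) and 8 of 10 for LZK KO minus DLK KO. At these depths genes at 1 CPM rest on 8.41 to 14.6 counts per library, and their fold changes are imprecise. RNA counts show neither kinase activity nor protein.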
